A study of Danio rerio with 17 samples.

Results

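Solute carriers are membrane proteins that move amino acids, sugars, ions, vitamins, metals and metabolites across the plasma membrane and the membranes of organelles. The genes described here were all entries of the count table whose symbol begins with slc followed by a digit or by the letter o, with *slc1a5*, *slc3a2b* and *slc40a1* left out. They numbered 173 of 8513 entries, and 168 of them were among the 8412 entries with enough counts to be tested. *slc15a1a*, *slc22a7b.3*, *slc45a3*, *slc4a2a* and *slc6a19a.1* were counted but not tested. The genes were sorted by what their families carry into 14 classes, the largest being the mitochondrial carriers of the slc25 family (32 genes), the amino acid carriers (23), the carriers of inorganic ions and acid equivalents (20), the metal carriers (15) and the sugar carriers (13). A class of 4 genes, *slc4a1ap*, *slc7a6os*, *slc9a3r1a* and *slc9a3r1b*, is named after carriers but does not encode carriers.

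The hepatocyte depends on these proteins for much of its work. Carriers of the basolateral membrane bring in amino acids, glucose, fatty acids and organic anions from blood, carriers of the inner mitochondrial membrane exchange nucleotides, acids and cofactors with the cytosol, and zinc, copper and iron are moved by separate families. Some members mark other cells, such as *slc4a1a*, the anion exchanger of the red cell membrane, and the peptide importer *slc15a1b* and the sodium-coupled glucose importer *slc5a1*, both known from the absorptive cells of the gut.

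Livers of adult zebrafish that carried Tg(fabp10a:NLS-mCherry), a nuclear reporter driven by a hepatocyte promoter, were sampled on days 1, 3 and 7 after cryoinjury (1, 3 and 7 dpci, 4 samples each) and compared with sham-operated livers (5 samples). Cryoinjury was made by holding a probe cooled in liquid nitrogen against the liver surface, whereas sham animals were touched with a probe at room temperature. Fish were 4 to 9 months old. Pools of 3 livers in 3 replicates are described in the methods, while a legend gives 4 technical replicates and 16 livers. P-values may therefore measure technical spread only. The paper describes sequencing of the injured region of the ventral lobe and, apart from it, of the contralateral lobe. The same legend speaks of ventral lobes, sham-operated or injured. The labels do not name the lobe, so they do not show which region each sample holds.

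Total counts ranged from 4743533 to 6800961 per sample, and the solute carriers took 0.433% to 0.811% of them. Levels are given as normalised CPM, counts scaled to library size (CPM) after adjusting each library by the trimmed mean of M-values (TMM). These scaling factors ran from 1.199 to 1.69 at 1 dpci and from 0.608 to 1.03 in sham livers, and the median of all entries at 1 dpci moved with the choice of scaling. The largest entry of each library took 38.55% to 43.93% of its counts in sham livers and 23.3% to 34.64% at 1 dpci. Column totals include that entry. Its part in the difference between the scalings was not tested. All 8 hepatocyte markers were found, with a summed level of 44090 to 51400 CPM at 1 dpci against 76170 to 166400 CPM in sham livers. At 1 dpci the samples of 5 of them, *fabp10a*, *tfa*, *apoa2*, *cp* and *serpina1*, lay below every sham sample, *fgb* lay above (7081 to 12040 CPM against 3809 to 6296 CPM), and *ttr* and *ambp* overlapped. Fewer hepatocytes and less RNA per hepatocyte cannot be told apart in such samples. The summed levels of 6 of 8 erythrocyte markers (528 to 1003 CPM against 1810 to 13710 CPM) and of 8 of 11 markers of the exocrine pancreas (388 to 4401 CPM against 3799 to 30110 CPM) were also lower at 1 dpci. So was the sum of 4 of 7 markers of stellate cells and fibroblasts (18.2 to 40.8 CPM against 39.3 to 122 CPM). The sums overlapped between groups for the pancreas and stellate lists. Gene by gene, 2 of 6 erythrocyte, 5 of 8 pancreas and 1 of 4 stellate markers lay below every sham sample, and the others overlapped. Biliary sums (54.15 to 210 CPM against 117 to 183 CPM) overlapped as well. So did endothelial (21 to 28.5 CPM against 17.5 to 28.6 CPM) and leukocyte sums (49.4 to 73.65 CPM against 24.8 to 58.5 CPM). In each of the last 2 lists 1 marker lay above every sham sample. The part of all these markers in the results was not tested. At 1 dpci, replicates 1 and 2 and replicates 3 and 4 lay far closer to each other than any other pair of one group, with a chi-square per gene of 4.32 and 4.76, against 10.4 to 33.7 for all other pairs. They differed by more than sampling noise, but this does not show that they came from separate pools. They were kept as 4 samples, and the p-values treat them as separate. Results with each pair summed are given beside the counts. Sham replicates 1 to 4 are labelled with numbers 61 to 64. Sham replicate 5 is labelled with 1, and the injured samples with 9 to 33. What these numbers stand for is not stated. Those of 7 dpci replicates 2 and 4 lack the R that stands before the others, and 7 dpci replicate 2 and 3 dpci replicate 3 share a number. For sham replicates 1 to 4, whatever the numbers mark and injury cannot be told apart.

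Set against sham livers, 21 solute carriers were higher at 1 dpci and 30 were lower, at an adjusted p of at most 0.05. This was 12.5% and 17.9% of the 168 tested, beside 9.43% and 14.5% of all entries tested. Their median log2 fold change was -0.08, against -0.02 over all entries. Samples of the groups did not overlap for 23 carriers that were higher and 25 that were lower, where 10.9% and 12.2% of all entries showed the same. By the thresholds of the methods, a log2 fold change of 1.5 and an unadjusted p of 0.05, 17 were higher and 32 lower, beside 5.48% and 11.9% of all entries. The largest rises were those of *slc7a3a*, *slc25a15a*, *slc29a4* and *slc39a3*, and among the carriers that averaged above 5 CPM in sham livers falls of more than 4 on the log2 scale were those of *slc25a32a*, *slc43a1b*, *slc25a29b* and *slc2a9l1*. *slc2a9l1* reached that mean only through sham replicate 2, with 35.7 CPM against 1.48 to 2.43 CPM in the other sham samples. Without that sample its log2 fold change was -3.67 and it was not called. Scaled by column totals, which moves the median of all entries to a log2 fold change of 0.84, 58 carriers were higher and 20 lower, beside 37.5% and 5.62% of all entries. Samples did not overlap for 55 above and 11 below, beside 32.2% and 3.86%. The 51 carriers called with TMM factors all kept their direction with column totals, and 41 of them stayed called. Column totals raised log2 fold changes, and the lower calls, except *slc37a2* at -0.84, were at -1.198 or below. The kept direction was therefore nearly fixed by the size of the calls. The calls lost were those of *slc25a10*, *slc25a11*, *slc25a51b*, *slc2a2*, *slc35d1b*, *slc37a2*, *slc38a5b*, *slc47a2.1*, *slc6a19a.2* and *slc6a6b*. With the 1 dpci libraries summed in 2 pairs, 7 were higher and 10 lower, and 17 of the 51 calls remained. The higher were *slc7a3a*, *slc10a4*, *slc20a1b*, *slc25a15a*, *slc29a4*, *slc38a3b* and *slc39a3*. Lower were *slc1a3a*, *slc16a7*, *slc22a2*, *slc25a29b*, *slc25a32a*, *slc25a42*, *slc27a2a*, *slc27a6*, *slc38a5b* and *slc43a1b*. The other calls of the 51 were lost in that fit. All 51 kept their direction, but the summed libraries hold the same reads. Without 1 dpci replicate 1, 13 were higher. In this paragraph and below, counts from alternative fits without a share of all entries beside them describe the carriers alone. They do not show whether a shift in number was particular to the carriers. When calls were made with sham replicate 5 left out, 18 carriers were higher and 28 lower. Relative to sham replicate 5 by itself, 17 (94.4%) and 27 (96.4%) of them had the same sign. Of all entries called higher and lower in that way, 91.4% and 88.5% did. The 1 dpci samples are shared by both steps.

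**Figure D1:**
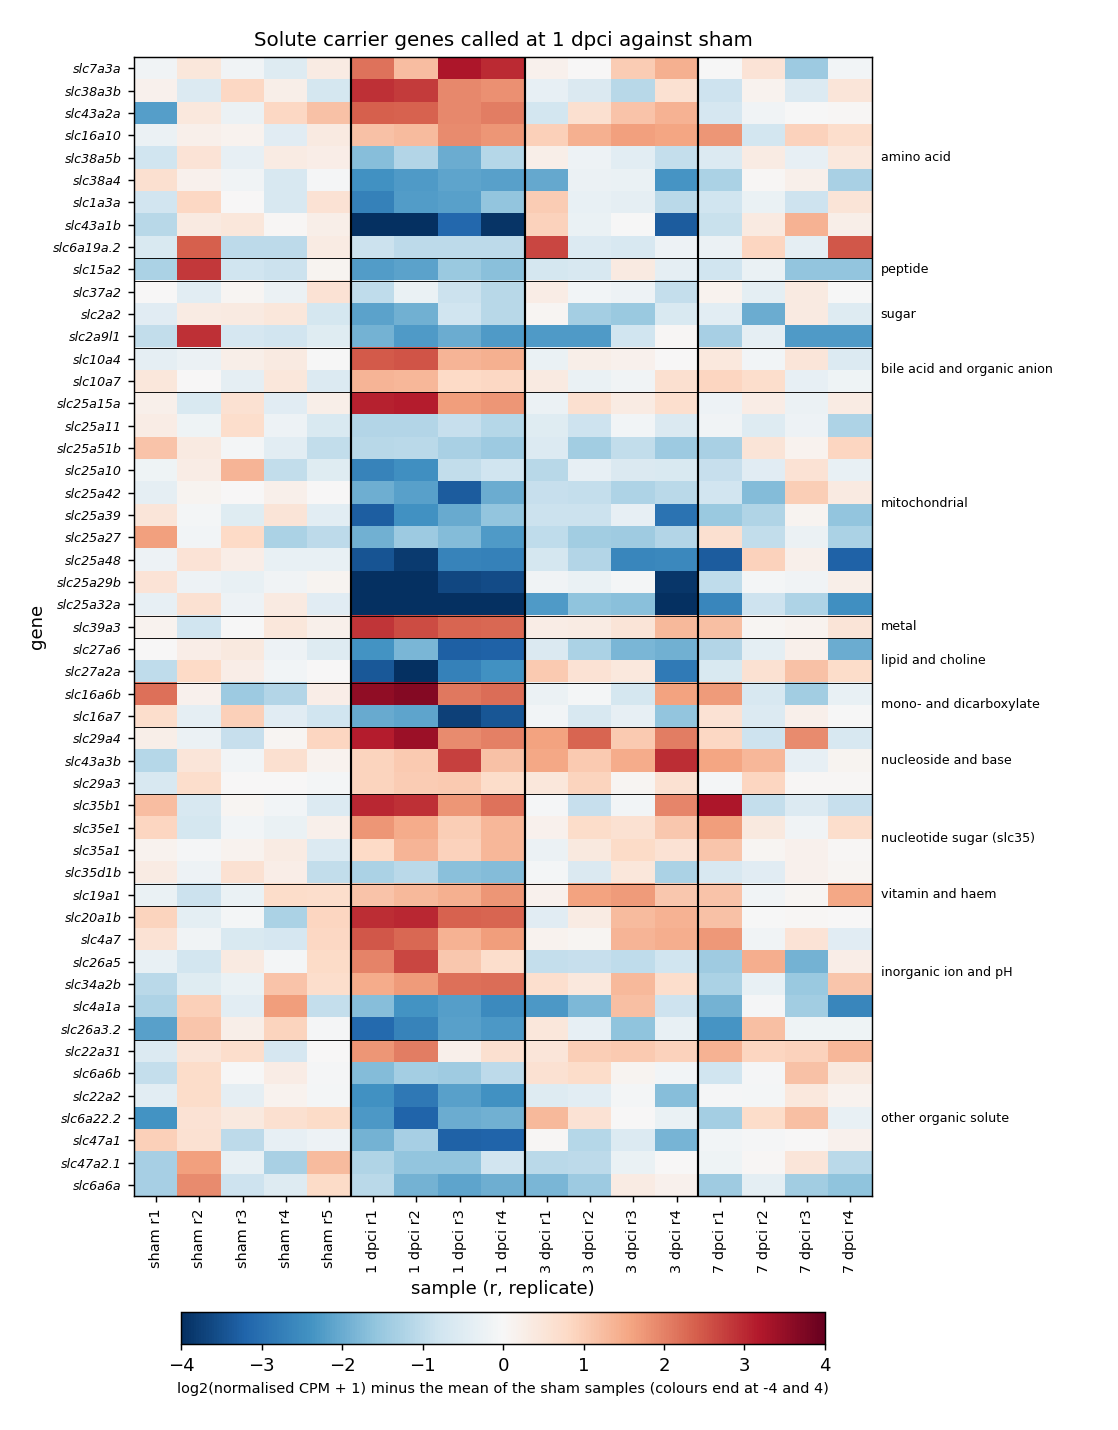
Level of each of the 51 solute carriers called at 1 dpci against sham (rows, grouped by class) in all 17 samples (columns), as log2(normalised CPM + 1) minus the mean of the 5 sham samples, with red above and blue below that mean and colours ending at -4 and 4. The rows were chosen by their calls at 1 dpci, so the 4 columns of 1 dpci stand apart by that choice. 3 dpci replicate 4 shares many of their deep blue cells, such as *slc25a29b* at 5.92 CPM against 84.3 to 96.4 CPM in the other 3 dpci samples.

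The heat map of the 51 carriers shows where the calls lie. Over all entries tested, 9.43% were higher and 14.5% lower with TMM factors, and 37.5% and 5.62% with column totals. Of 32 mitochondrial carriers, 9 were lower and 1 higher with TMM factors, a split that turned to 6 lower and 9 higher with column totals. The class of other organic solutes had 6 of 17 lower and 1 higher (4 and 3 with column totals), and lipid and choline carriers 2 of 5 lower and none higher under either scaling. Among the 6 lower organic solute carriers, the groups of *slc6a22.2*, *slc6a6a* and *slc47a2.1* overlapped. The calls of *slc6a6a* and *slc47a2.1* were lost in 4 and 5 of the 17 fits with 1 sample left out. Sugar carriers had 3 of 12 lower and none higher with TMM factors, but 1 lower and 2 higher with column totals. Higher calls prevailed among nucleoside and base carriers (3 of 5), slc35 carriers of the secretory pathway (3 of 10, with 1 lower), inorganic ion carriers (4 of 19, with 2 lower) and bile acid and organic anion carriers (2 of 9). In these 4 classes no scaling turned the split. Amino acid carriers had 4 of 22 higher and 5 lower, or 8 higher and 3 lower with column totals. None of the 4 genes that are merely named after a carrier was called with TMM factors (smallest adjusted p 0.403), and 1 was higher with column totals.

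**Figure D2:**
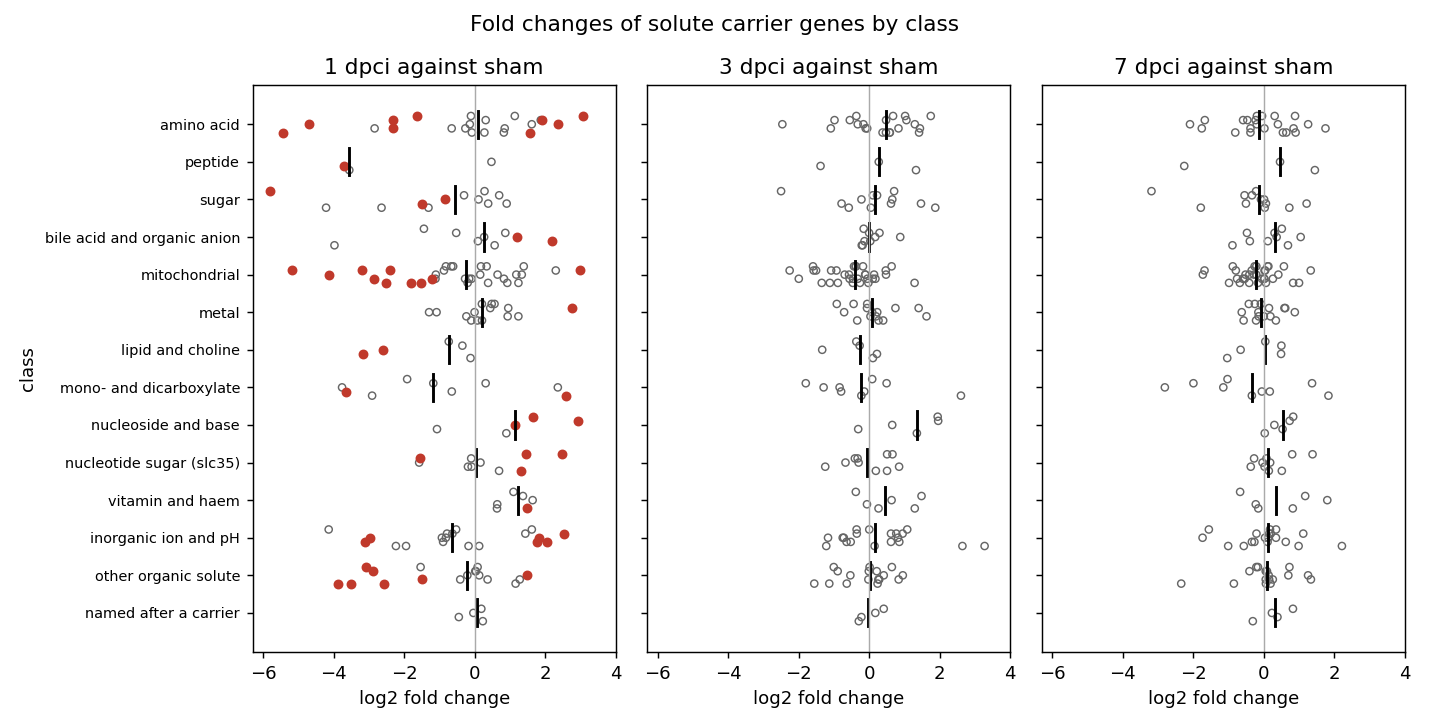
Log2 fold change (horizontal axis) of each tested solute carrier in 14 classes (vertical axis) at 1, 3 and 7 dpci against sham, 1 panel per time point, with filled red points for genes at an adjusted p of at most 0.05, open points for the others and a black bar at the median of the class. Red points occur only in the panel of 1 dpci, where the class medians run from -3.56 (peptide, 3 genes) to 1.23 (vitamin and haem, 6 genes).

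Amino acid carriers moved in both directions. *slc38a3b*, a sodium-coupled glutamine carrier known from hepatocytes of mammals, had 241, 224, 121 and 113 CPM at 1 dpci, against 35.2, 20.9, 56.3, 36.9 and 18.9 CPM in sham livers. All 4 injured samples lay above every sham sample, and its log2 fold change was 2.38 ± 0.42 (SE, adjusted p = 0.00109). *slc7a3a*, a carrier of cationic amino acids, had 11.2, 5.45, 24.7 and 20.3 CPM at 1 dpci and 0.912 to 2.73 CPM in sham livers (log2 fold change 3.08 ± 0.63, adjusted p = 0.00274). *slc16a10*, which in mammals carries aromatic amino acids, had 67.2, 72.8, 112 and 102 CPM at 1 dpci and 21 to 38.1 CPM in sham livers (log2 fold change 1.56 ± 0.37, adjusted p = 0.0074). *slc43a2a*, of a family that carries large neutral amino acids, had 42.1 to 59 CPM at 1 dpci, against 1.48 to 24.3 CPM in sham livers, where sham replicate 1 was the lowest (adjusted p = 0.017).

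Its relative *slc43a1b* moved the other way. It had 0.758, 0.352, 2.39 and 1.00 CPM at 1 dpci, against 12.9, 38, 39.9, 30.1 and 34.7 CPM in sham livers, without overlap, and a log2 fold change of -4.71 ± 0.81 (adjusted p = 0.000817). *slc38a4*, a neutral and cationic amino acid carrier that is abundant in liver, had 137, 153, 172 and 163 CPM at 1 dpci, against 1159, 828, 678, 479 and 719 CPM in sham livers. The 1 dpci values lay within a narrow band, and the lowest sham value was well above it (log2 fold change -2.31 ± 0.48, adjusted p = 0.00297). *slc1a3a*, of the family of glutamate importers, had 10.6 to 24.7 CPM at 1 dpci and 43.9 to 134 CPM in sham livers (-2.32 ± 0.48, adjusted p = 0.00307). *slc38a5b*, another glutamine carrier of the slc38 family, had 5.42 to 10.5 CPM at 1 dpci and 13.5 to 35.9 CPM in sham livers (-1.64 ± 0.36, adjusted p = 0.00423), and was not called with column totals. The fifth lower call, *slc6a19a.2*, of the family of neutral amino acid importers of gut and kidney, rests on single libraries, with 0.152, 0, 0 and 0 CPM at 1 dpci against 0.369, 10.002, 0, 0 and 1.62 CPM in sham livers, and by its name it has a tandem copy, so that its reads may be divided between the copies. *slc38a2*, a widely expressed neutral amino acid carrier, had 6.15 to 12.7 CPM at 1 dpci and 9.22 to 24.3 CPM in sham livers and was not called (adjusted p = 0.354). The 13 tested amino acid carriers that were not called had log2 fold changes from -2.84 (*slc6a19b*) to 1.87 (*slc7a10a*).

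**Figure D3:**
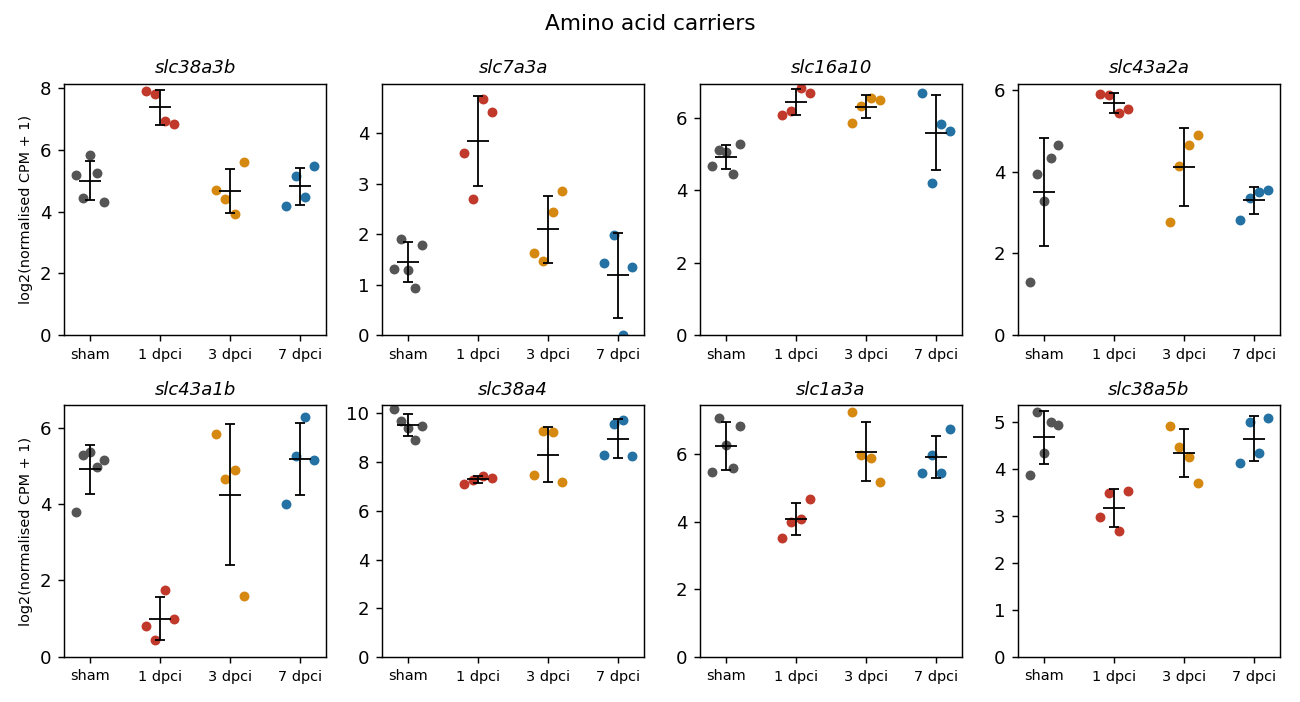
Level of the 4 amino acid carriers that rose (upper row) and 4 that fell (lower row) at 1 dpci, as log2(normalised CPM + 1) for sham (5 samples), 1, 3 and 7 dpci (4 samples each), with 1 point per sample and bars for the mean and SD. At 1 dpci, *slc38a3b* lies at 113 to 241 CPM, above all other samples, and *slc43a1b* at 0.352 to 2.39 CPM, where the only other sample near it is 3 dpci replicate 4 at 2.01 CPM.

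The plot of these 8 genes shows that sham, 3 dpci and 7 dpci samples of *slc38a3b* shared 1 range, from 14.0 to 56.3 CPM, and that *slc16a10* had not returned to the range of the sham samples at 3 dpci, with 57.2, 79.6, 93.4 and 90.2 CPM. At 7 dpci the *slc16a10* values overlapped those of sham livers, with a log2 fold change of 0.90 ± 0.37 (adjusted p = 0.529). 7 dpci replicate 2 had 106 counts of it, against 264 to 670 in the other 7 dpci samples.

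With TMM factors, mitochondrial carriers, the largest class, held the largest number of lower genes. Their share was 28.1%, beside 35.3% of other organic solutes, 40% of lipid and choline carriers and 14.5% of all entries tested. *slc25a32a*, named after the carrier that brings folate and flavin cofactors into the mitochondrion, had 1.21, 2.99, 3.25 and 4.27 CPM at 1 dpci, against 83.6, 159, 89.5, 134 and 76.0 CPM in sham livers. Its log2 fold change of -5.19 ± 0.64 (adjusted p = 0.000106) gave the smallest p-value of all solute carriers. Its copy *slc25a32b* had 6.98, 6.86, 5.42 and 4.27 CPM at 1 dpci and 9.22, 1.82, 9.33, 3.65 and 2.03 CPM in sham livers, with a log2 fold change of 0.18 ± 0.46 (adjusted p = 0.81). The sham and 1 dpci values of the second copy overlapped.

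*slc25a29b*, of the mitochondrial carriers of basic amino acids, had 4.40, 4.04, 7.27 and 7.66 CPM at 1 dpci, against 148, 87.3, 82.2, 91.7 and 109 CPM in sham livers (log2 fold change -4.14 ± 0.61, adjusted p = 0.000302). *slc25a42*, the carrier of coenzyme A, had 12.4, 10.5, 4.23 and 12.2 CPM at 1 dpci, against 40.2, 55.9, 51.3, 59.5 and 51.7 CPM in sham livers (-2.39 ± 0.46, adjusted p = 0.0017). *slc25a39*, which carries glutathione, had 1.36, 3.34, 4.66 and 6.66 CPM at 1 dpci, against 31.4, 20.7, 15.4, 31.9 and 16.2 CPM in sham livers (-2.51 ± 0.58, adjusted p = 0.00588). In all 3 genes the groups did not overlap. The other lower members were *slc25a48* (13, 10.02, 23.1 and 23 CPM at 1 dpci, against 124 to 227 CPM in sham livers), *slc25a27*, *slc25a11*, *slc25a51b* and *slc25a10*, the carriers of oxoglutarate, NAD and dicarboxylates being the last 3, with log2 fold changes from -3.20 to -1.20 and adjusted p from 0.0062 to 0.0231. Calls of *slc25a10*, *slc25a11* and *slc25a51b* were lost with column totals. Those of *slc25a10*, whose groups overlapped, and *slc25a51b* were also lost in 3 and 5 of the 17 fits with 1 sample left out.

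With TMM factors, a single mitochondrial carrier rose. *slc25a15a*, named after the ornithine carrier that links the mitochondrial and cytosolic steps of the urea cycle, had 23.5, 24.6, 8.35 and 9.04 CPM at 1 dpci, against 2.40, 0.909, 3.50, 1.14 and 2.43 CPM in sham livers, without overlap (log2 fold change 2.97 ± 0.45, adjusted p = 0.000356). The close pairs of 1 dpci libraries are visible here, since replicates 1 and 2 lay above replicates 3 and 4 by more than they differed from each other. Several carriers of core mitochondrial functions were not called. The adenine nucleotide carrier *slc25a5* had 938 to 1240.4 CPM at 1 dpci and 1277 to 2049 CPM in sham livers (-0.61 ± 0.26, adjusted p = 0.0925). The phosphate carrier *slc25a3b* had 259 to 353 CPM at 1 dpci and 237 to 486 CPM in sham livers (-0.16 ± 0.23, adjusted p = 0.655). *slc25a20*, the carnitine and acylcarnitine exchanger, had 51.6 to 106 CPM at 1 dpci and 74.6 to 101 CPM in sham livers (-0.09 ± 0.34, adjusted p = 0.87). *slc25a25a*, an ATP-Mg and phosphate carrier, had 244, 214, 93.5 and 106 CPM at 1 dpci, and in sham livers 277 CPM in replicate 1 and 7.58 to 25.1 CPM in the others, which left its difference unresolved (1.24 ± 0.83, adjusted p = 0.288).

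**Figure D4:**
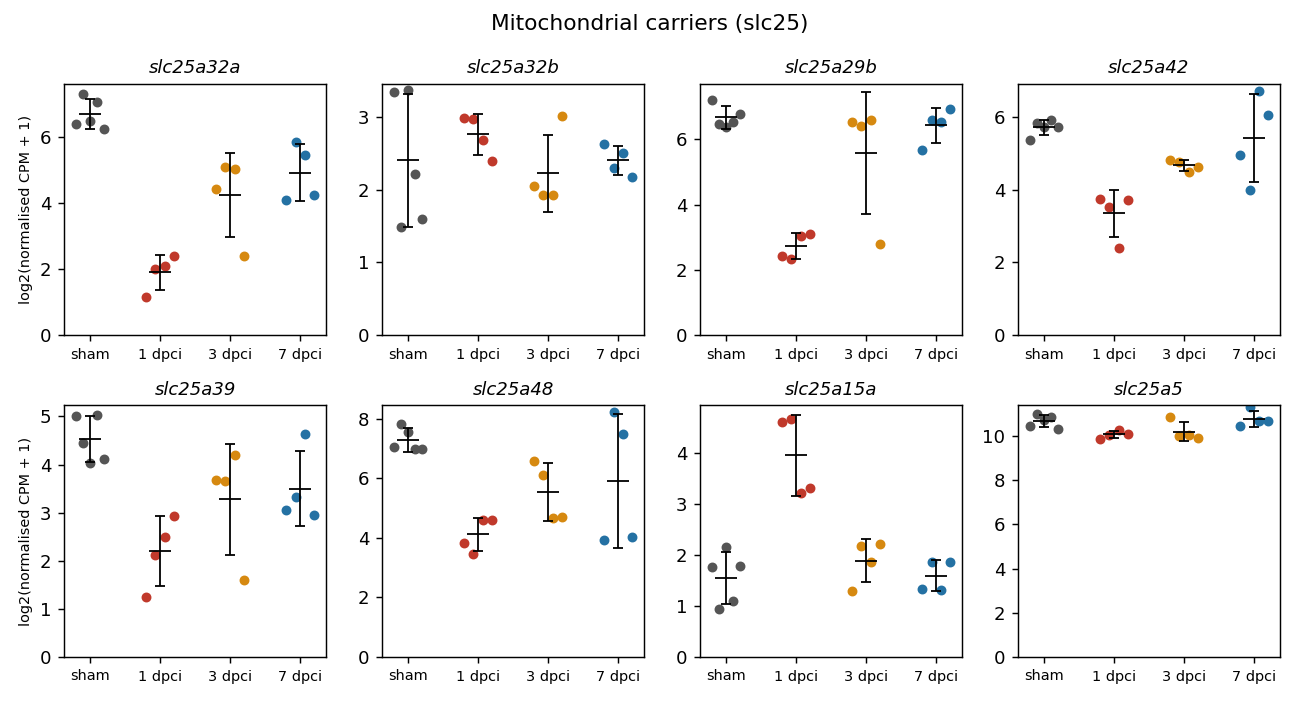
Level of 8 mitochondrial carriers as log2(normalised CPM + 1) in sham (5 samples), 1, 3 and 7 dpci (4 samples each), with 1 point per sample and bars for the mean and SD, each panel on its own axis. *slc25a32a* falls to 1.21 to 4.27 CPM at 1 dpci and stays below the lowest sham sample (76.0 CPM) in all 3 and 7 dpci samples, while *slc25a15a* lies at 8.35 to 24.6 CPM at 1 dpci and *slc25a32b* and *slc25a5* were not called.

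With TMM factors, all 3 sugar carriers that were called were lower. *slc2a2*, the facilitative glucose carrier of the hepatocyte, had 13.3, 15.6, 35.5 and 28.4 CPM at 1 dpci, against 45.7, 78.4, 79.9, 86.7 and 38.3 CPM in sham livers. The groups did not overlap, although the gap between 35.5 and 38.3 CPM was small, and the log2 fold change was -1.50 ± 0.47 (adjusted p = 0.0304). The call was not kept when sham replicate 2, 3 or 4 or 1 dpci replicate 1 or 2 was left out, and with column totals. *slc37a2*, of the sugar phosphate exchangers, had 24.5 to 44.7 CPM at 1 dpci and 40.0 to 82.5 CPM in sham livers, with overlap (-0.84 ± 0.30, adjusted p = 0.0486), and was not called in 11 of the 17 fits with 1 sample left out. *slc2a9l1*, of the urate carriers, had 0.303, 0, 0.217 and 0 CPM at 1 dpci and 1.48, 2.04, 1.82 and 2.43 CPM in 4 sham samples, with 35.7 CPM in sham replicate 2. It was not called in 3 of the 17 fits with 1 sample left out, that without sham replicate 2 among them. The glucose-6-phosphate carrier *slc37a4a* had 22.9 to 34.1 CPM at 1 dpci and 26.5 to 38.9 CPM in sham livers (-0.30 ± 0.30, adjusted p = 0.491), a difference whose sign turned with column totals.

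Bile acid and organic anion carriers known from the liver were not called at 1 dpci with TMM factors. *slco1d1*, an organic anion importer, had 45, 50.3, 178 and 186 CPM at 1 dpci, against 185, 290.3, 322, 318 and 446 CPM in sham livers, and missed the threshold (-1.44 ± 0.52, adjusted p = 0.0531). The 1 dpci samples fell into the same pairs as above, and replicate 4, at 186 CPM, was the only one of them above the lowest sham sample. It passed in DESeq2 and in 7 of the other fits tried. *slc51a*, a subunit of the basolateral bile acid exporter, had 164 to 364 CPM at 1 dpci and 242 to 550.4 CPM in sham livers (-0.53 ± 0.40, adjusted p = 0.358). *slco2b1* had 2.81 to 3.94 CPM at 1 dpci and 1.17 to 4.56 CPM in sham livers (0.27 ± 0.63, adjusted p = 0.787). The difference of *slc51a* turned its sign with column totals.

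Both calls of this class were members of the bile acid carrier family that are not known as bile acid carriers of the hepatocyte. *slc10a4*, known in mammals from synaptic vesicles, had 36.1, 37.3, 16.4 and 17.1 CPM at 1 dpci, against 4.24, 4.77, 7.00, 7.75 and 5.68 CPM in sham livers, without overlap (2.18 ± 0.33, adjusted p = 0.000353). *slc10a7*, linked in mammals to calcium handling and bone, had 7.70 to 11.8 CPM at 1 dpci and 2.43 to 5.93 CPM in sham livers (1.19 ± 0.37, adjusted p = 0.029), and its call was lost in 5 of the 17 fits with 1 sample left out. Of 28 liver carriers listed from general knowledge, 13 were analysed here, and the others, the bile acid importer *slc10a1* among them, were not analysed here.

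The metal carriers held 1 call with TMM factors and 9, all higher, with column totals. *slc39a3*, of the zinc importers, had 32.2, 26.5, 21.8 and 21.4 CPM at 1 dpci, against 4.06, 1.59, 3.50, 5.25 and 4.26 CPM in sham livers. All injured samples lay above 20 CPM and all sham samples below 6 CPM, and the log2 fold change was 2.76 ± 0.36 (adjusted p = 0.000183). The zinc exporter *slc30a1a* had 25, 28, 21.6 and 15.2 CPM at 1 dpci, against 19.6, 10.5, 8.74, 10.9 and 8.72 CPM in sham livers, and lay just outside the threshold (0.94 ± 0.33, adjusted p = 0.0501). It passed in DESeq2 and in 10 of the other fits tried. The copper importer *slc31a1* had 25.3 to 65.6 CPM at 1 dpci and 28.6 to 69.1 CPM in sham livers (-0.24 ± 0.72, adjusted p = 0.837), and the iron and manganese carrier *slc11a2* averaged 22.5 CPM at 1 dpci and 21.4 CPM in sham livers (0.08 on the log2 scale, adjusted p = 0.87). The remaining 11 metal carriers had log2 fold changes from -1.30 (*slc39a10*) to 1.24 (*slc39a8*), and none was called with TMM factors.

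Among carriers of lipids, the calls were fatty acid transport proteins. *slc27a2a*, an acyl-CoA synthetase that takes up fatty acids, had 26.1, 14.1, 42.4 and 51.9 CPM at 1 dpci, against 141, 497, 343, 263 and 286 CPM in sham livers (log2 fold change -3.18 ± 0.64, adjusted p = 0.00249). *slc27a6*, of the same family, had 50.4, 75.1, 26.6 and 27.3 CPM at 1 dpci, against 272, 322, 354, 233 and 188 CPM in sham livers (-2.61 ± 0.47, adjusted p = 0.00116). Neither overlapped between groups. The organic cation carrier *slc22a2* had 22.1, 16.2, 26.7 and 22.4 CPM at 1 dpci, against 92.0, 204, 95.9, 137 and 116 CPM in sham livers, without overlap (-2.56 ± 0.34, adjusted p = 0.000198). It was 1 of 3 carriers, with *slc25a32a* and *slc25a29b*, that were still called when sham replicate 5 was the only sham sample. *slc47a1*, an organic cation exporter, had 1.82, 3.16, 0.108 and 0.126 CPM at 1 dpci, against 4.08 to 19 CPM in sham livers (-3.09 ± 0.75, adjusted p = 0.00815). The taurine carrier *slc6a6b* had 24.7 to 40.4 CPM at 1 dpci and 43.3 to 140.5 CPM in sham livers (-1.49 ± 0.39, adjusted p = 0.0124). With column totals it was not called.

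Monocarboxylate carriers differed among themselves. *slc16a7*, a proton-coupled carrier of pyruvate and ketone bodies, had 2.27, 2.11, 0 and 0.251 CPM at 1 dpci, against 20.7, 9.32, 24.8, 8.67 and 6.69 CPM in sham livers (-3.65 ± 0.75, adjusted p = 0.00297). *slc16a6b* had 49.3, 54.8, 17.7 and 19.5 CPM at 1 dpci, against 19 CPM in sham replicate 1 and 0.583 to 4.26 CPM in the other sham samples (2.59 ± 0.89, adjusted p = 0.0433), and overlapped by that replicate. It was not called in 8 of the 17 such fits. *slc16a3*, the lactate exporter of glycolytic cells, had 16.4, 10.7, 3.69 and 1.63 CPM at 1 dpci and 0 to 3.32 CPM in sham livers and was not called (2.36 ± 0.94, adjusted p = 0.0771).

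Of the nucleoside and slc35 carriers, 6 rose and 1 fell. *slc29a4*, which in mammals takes up monoamines and adenosine, had 35.8, 43.4, 14.3 and 15.7 CPM at 1 dpci, against 3.87, 2.50, 1.17, 3.42 and 6.49 CPM in sham livers, without overlap (2.94 ± 0.62, adjusted p = 0.0035). *slc43a3b*, of the carriers of purine bases, had 18.2, 20.4, 67.3 and 22.4 CPM at 1 dpci and 3.69 to 15.1 CPM in sham livers (1.66 ± 0.54, adjusted p = 0.0362), and was not called in 5 of the 17 fits with 1 sample left out. Without 1 dpci replicate 3 the log2 fold change was 1.01. The lysosomal nucleoside carrier *slc29a3* had 4.02 to 5.21 CPM at 1 dpci and 0.922 to 3.86 CPM in sham livers (1.14 ± 0.40, adjusted p = 0.0479), and was not called in 14 of the 17 fits with 1 sample left out. The carrier of CMP-sialic acid into the Golgi, *slc35a1*, had 6.07 to 9.49 CPM at 1 dpci and 1.82 to 4.11 CPM in sham livers (1.31 ± 0.35, adjusted p = 0.0135). *slc35e1* had 11.1 to 19.9 CPM at 1 dpci and 2.73 to 9.96 CPM in sham livers (1.47 ± 0.40, adjusted p = 0.0154), and was not called in 1 of the 17 such fits. *slc35b1*, which in mammals exchanges ATP into the endoplasmic reticulum, had 85.1, 80.3, 35.4 and 47.0 CPM at 1 dpci and 5.91 to 24.3 CPM in sham livers (2.47 ± 0.87, adjusted p = 0.0479), with 101 CPM in 7 dpci replicate 1. The call was lost in 10 of the 17 such fits. *slc35d1b*, of the UDP-sugar carriers, was lower, with 16.6 to 26.7 CPM at 1 dpci and 28.2 to 87.7 CPM in sham livers (-1.54 ± 0.38, adjusted p = 0.00851). Its call was lost with column totals.

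Among ion carriers, 4 rose. The phosphate importer *slc20a1b* had 244, 256, 161 and 159 CPM at 1 dpci, against 57.2, 23.4, 29.1, 12.1 and 56.0 CPM in sham livers (2.53 ± 0.47, adjusted p = 0.00143). The sodium-coupled phosphate carrier *slc34a2b* had 52.8 to 91.1 CPM at 1 dpci and 8.12 to 41.5 CPM in sham livers (1.76 ± 0.53, adjusted p = 0.0241). It was not called in 3 of the 17 fits with 1 sample left out. *slc4a7*, a sodium and bicarbonate cotransporter, had 34.4, 30.4, 15.6 and 19.3 CPM at 1 dpci, against 2.96 to 10.3 CPM in sham livers (2.05 ± 0.52, adjusted p = 0.0106). The fourth, *slc26a5*, whose product prestin drives outer hair cells in mammals, had 38.8, 63.5, 20.4 and 15.4 CPM at 1 dpci, against 5 to 16.2 CPM in sham livers (1.82 ± 0.61, adjusted p = 0.0387). Its groups overlapped, and it was not called in 6 of the 17 fits with 1 sample left out. The anion exchanger *slc26a3.2* was lower, with 2.58 to 5.97 CPM at 1 dpci and 5.90 to 66.2 CPM in sham livers (-3.10 ± 0.72, adjusted p = 0.00611). The red cell anion exchanger *slc4a1a* had 4.55, 2.46, 2.93 and 2.14 CPM at 1 dpci, against 6.82, 34.1, 12.5, 57.0 and 8.31 CPM in sham livers (-2.97 ± 0.87, adjusted p = 0.0211), and it was not called without sham replicate 4 or without 1 dpci replicate 2, 3 or 4. Among sham samples the summed erythrocyte markers were likewise highest in replicate 4 (13710 CPM) and replicate 2 (5108 CPM). At 3 dpci they were highest in replicate 3 (3500 CPM against 791 to 1325 CPM), where *slc4a1a* had 41.2 CPM against 2.72 to 9.35 CPM. At 7 dpci they were highest in replicate 2 (5511 CPM against 1101 to 1485 CPM), where *slc4a1a* had 101 counts against 14 to 28. Sham replicate 3 had as much of these markers (3590 CPM) as 3 dpci replicate 3, but 12.5 CPM of *slc4a1a*. The part of red cells in the level of *slc4a1a* was not tested. The reduced folate carrier *slc19a1* had 9.40 to 15.1 CPM at 1 dpci and 1.59 to 6.84 CPM in sham livers (1.47 ± 0.47, adjusted p = 0.0326), a call that was lost in 7 of the 17 fits with 1 sample left out.

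Against sham, no solute carrier was called at 3 dpci by edgeR, beside 0.0119% of all entries higher and 0% lower, although 21 passed an unadjusted p of 0.05, 11.8% of all entries doing so. DESeq2 called 2 higher and 1 lower, beside 0.67% and 1.23% of all entries. The thresholds of the methods gave 3 higher and 5 lower, beside 1.81% and 1.8% of all entries. The carrier with the smallest p was again *slc25a32a*, with 20.7, 33.6, 32.1 and 4.26 CPM at 3 dpci, against 76.0 to 159 CPM in sham livers (log2 fold change -2.26 ± 0.54, adjusted p = 0.111). All 3 dpci samples lay below every sham sample. *slc16a10* had 57.2 to 93.4 CPM at 3 dpci and 21 to 38.1 CPM in sham livers (1.41 ± 0.37, adjusted p = 0.164). *slc43a3b* had 28.9, 20.3, 28 and 79.2 CPM at 3 dpci and 3.69 to 15.1 CPM in sham livers (1.94 ± 0.55, adjusted p = 0.174). Neither gene overlapped between groups. These were the 3 genes that DESeq2 called.

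At 7 dpci no solute carrier was called against sham by edgeR or by DESeq2, and 0% of all entries were called in either direction by edgeR. At an unadjusted p of 0.05, 14 carriers passed, beside 9.08% of all entries, and the thresholds of the methods gave 2 higher and 9 lower, beside 1.08% and 0.88% of all entries. *slc25a32a* had 16.3, 57.6, 43.2 and 18.2 CPM at 7 dpci, still below every sham sample (-1.68 ± 0.53, adjusted p = 0.516). *slc25a47b*, of a mitochondrial carrier that is liver-restricted in mammals, had 0.915, 0.492, 0.214 and 1.12 CPM at 7 dpci, against 4.24, 1.14, 4.08, 0.912 and 1.62 CPM in sham livers (-1.73 ± 0.55, adjusted p = 0.516). *slc22a31* had 6.56 to 9.92 CPM at 7 dpci and 1.6 to 5.83 CPM in sham livers (1.26 ± 0.43, adjusted p = 0.516). The members had a median log2 fold change of 0.02 at 7 dpci and -0.01 at 3 dpci, against 0.04 and -0.01 over all entries.

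Compared with 1 dpci, 12 carriers were higher and 9 lower at 3 dpci, beside 7.66% and 3.91% of all entries, and 24 were higher and 19 lower at 7 dpci, beside 14.6% and 8.45%. At 3 dpci these were 7.14% and 5.36% of the carriers tested, and at 7 dpci 14.3% and 11.3%. Both comparisons and that of 1 dpci against sham share the 1 dpci samples, so a gene that is low or high there is drawn in the same way into each. *slc22a2* had 119, 118, 165 and 137 CPM at 7 dpci and 86.8, 91.4, 117 and 37 CPM at 3 dpci, against 16.2 to 26.7 CPM at 1 dpci (log2 fold change 2.62 ± 0.35, adjusted p = 0.000343 at 7 dpci, and 1.92 ± 0.34, adjusted p = 0.00298 at 3 dpci). *slc25a29b* had 50.05, 96.3, 91.5 and 120.1 CPM at 7 dpci (3.93 ± 0.61, adjusted p = 0.000642), *slc43a1b* 15.1, 37.6, 77.4 and 34.4 CPM (5.11 ± 0.83, adjusted p = 0.000823) and *slc27a2a* 186, 431, 634 and 468 CPM (3.67 ± 0.67, adjusted p = 0.00166), all above every 1 dpci sample. Of the genes high at 1 dpci, *slc25a15a* had 1.5 to 2.67 CPM at 7 dpci (-2.95 ± 0.48, adjusted p = 0.000816), *slc10a4* had 3.65 to 8.55 CPM (-2.06 ± 0.35, adjusted p = 0.00103), *slc39a3* had 3.77 to 9.46 CPM (-2.15 ± 0.38, adjusted p = 0.00129) and *slc38a3b* had 17.2 to 44.1 CPM (-2.58 ± 0.46, adjusted p = 0.0015). *slc1a4*, a carrier of small neutral amino acids that was not called against sham, had 0.305, 1.97, 0.214 and 1.54 CPM at 7 dpci, against 12.9, 8.97, 15.8 and 17.3 CPM at 1 dpci (-3.71 ± 0.92, adjusted p = 0.00988). By the thresholds of the methods, 24 carriers were higher and 14 lower at 3 dpci than at 1 dpci, beside 9.99% and 3.25% of all entries. Summing the 1 dpci libraries in 2 pairs left 7 higher and 9 lower at 7 dpci, and 1 higher and 4 lower at 3 dpci.

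3 dpci replicate 4 differed from the other 3 samples of its group for many of these genes. It had 5.92 CPM of *slc25a29b* against 84.3 to 96.4 CPM, 38.7 CPM of *slc27a2a* against 379 to 580.3 CPM, 2.01 CPM of *slc43a1b* against 24.1 to 56.6 CPM and 4.26 CPM of *slc25a32a* against 20.7 to 33.6 CPM. In each of these it lay within the range of 1 dpci. *slc31a1* had 0.473 CPM in it, against 44.6 to 85.3 CPM in the other 3 dpci samples and 25.3 to 65.6 CPM at 1 dpci, and no other sample was below 25 CPM. Its summed hepatocyte markers were 74420 CPM against 111500 to 171700 CPM in the other 3 dpci samples. Without it, 19 carriers rather than 12 were higher at 3 dpci than at 1 dpci, and still none was called against sham. Its difference was not particular to the carriers. Of carriers called higher and lower at 1 dpci, 71.4% and 56.7% lay beyond the sham samples in it. Of all entries so called, 57.5% and 56.3% did. In the other 3 dpci samples the shares were 14.3% to 52.4% and 23.3% to 46.7% of carriers. Over all entries they were 29.5% to 33.8% and 20% to 31.2%. In 7 dpci replicate 1 they were 57.1% and 43.3% of carriers, beside 41.5% and 33.3% of all entries.

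A small set of carriers was high in single libraries across groups. *slc15a1b*, the peptide importer of the gut, had 133 CPM in 3 dpci replicate 1, 141 CPM in 7 dpci replicate 4 and 66.2 CPM in sham replicate 2, and at most 5.25 CPM in all others. *slc13a2*, a carrier of citrate and other dicarboxylates, had 177, 98.4 and 29.3 CPM in the same samples and at most 5.58 CPM elsewhere, and *slc5a1*, the sodium-coupled glucose importer, had 65.6, 26.1 and 18.4 CPM and at most 5.44 CPM elsewhere. The gut epithelial gene *vil1* had 48, 48.1 and 20.7 CPM in these 3 samples and at most 3.50 CPM in the others. *fabp6*, another gene of the same list, went another way, with 94.7 CPM in 3 dpci replicate 3, 45.5 CPM in sham replicate 3 and at most 0.21 CPM in these 3 samples. Over the whole list, 4 of 7 enterocyte markers were found, *vil1*, *cdh17*, *mep1a.1* and *fabp6*, with a summed level of 18.5 to 143.9 CPM in sham livers, 6.33 to 14.3 CPM at 1 dpci, 22.7 to 127 CPM at 3 dpci and 12.4 to 85.8 CPM at 7 dpci. By this sum 3 dpci replicate 3 (124 CPM) lay above 7 dpci replicate 4 (85.8 CPM). Their part in the levels of these carriers was not tested. Without the 3 libraries in which *vil1* was above 20 CPM, a choice made after seeing the data, 17 carriers were higher and 24 lower at 1 dpci than in sham livers.

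**Figure D5:**
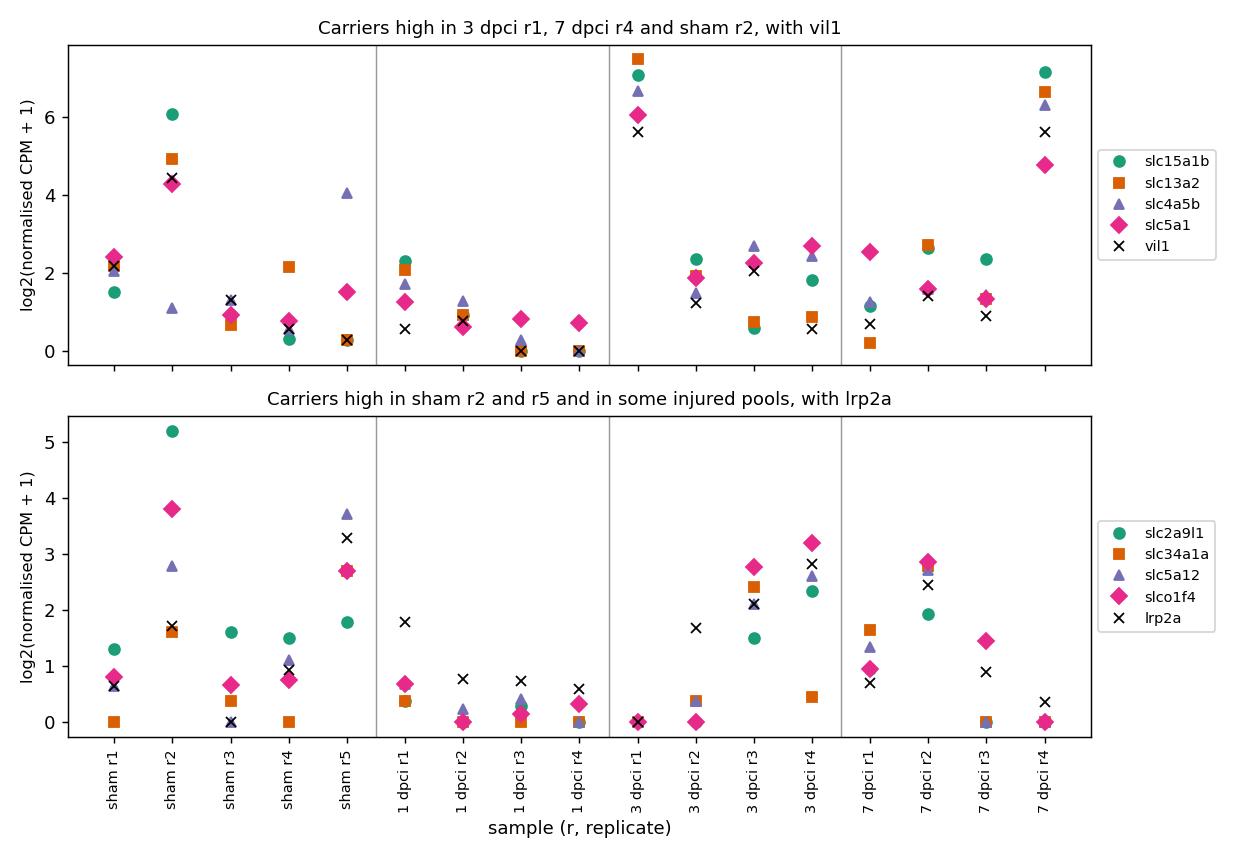
Levels of carriers that are high in single libraries, as log2(normalised CPM + 1) in each of the 17 samples in the order sham, 1, 3 and 7 dpci, with *vil1* (upper panel) and *lrp2a* (lower panel) as crosses. In the upper panel *slc15a1b* reaches 133 CPM in 3 dpci replicate 1, 141 CPM in 7 dpci replicate 4 and 66.2 CPM in sham replicate 2, the samples in which *vil1* lies above 20 CPM, and in the lower panel *slco1f4* reaches 13 CPM in sham replicate 2 and 8.17 CPM in 3 dpci replicate 4.

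The lower panel of the plot of single libraries shows a second set, *slc34a1a*, *slc5a12*, *slco1f4* and *slc2a9l1*, carriers of phosphate, monocarboxylates, organic anions and urate, drawn with *lrp2a*, an endocytic receptor known from the kidney tubule. *slc5a12* had 12.2 CPM and *lrp2a* 8.72 CPM in sham replicate 5, and *slc5a12* had 0 to 0.607 CPM and *lrp2a* 0.502 to 2.43 CPM at 1 dpci. In sham replicate 2, where *slco1f4* had 13 CPM and *slc2a9l1* 35.7 CPM, *lrp2a* had 2.27 CPM, within its range at 1 dpci. It had 6.04 CPM in 3 dpci replicate 4, 4.43 CPM in 7 dpci replicate 2 and 3.29 CPM in 3 dpci replicate 3. *slco1f4* had 69, 38 and 35 counts in those samples. In the other 3 and 7 dpci samples *lrp2a* had at most 2.21 CPM and *slco1f4* at most 8 counts. *lrp2a* was the only 1 of 5 listed tubule genes found, and the list was drawn up after seeing the data. *slc15a2*, a peptide importer known from kidney, had 0.455, 0.527, 1.41 and 1.13 CPM at 1 dpci, against 1.84, 46.8, 2.91, 2.74 and 6.29 CPM in sham livers (-3.71 ± 0.92, adjusted p = 0.00909). Sham replicate 2 alone stood above 10 CPM, but the groups did not overlap and the call held without it, at a log2 fold change of -1.91.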

How the data were processed

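RNA-seq of zebrafish liver was analysed in 17 samples, 4 each at 1, 3 and 7 dpci and 5 sham, grouped by their titles. The deposited table holds whole-number counts per gene, which the authors made from trimmed and aligned reads. The submitters' processing notes name cutadapt 1.16, HISAT2 2.1.0, featureCounts 1.6.0 and limma 3.40.6. The authors also deposited CPM, which equal the counts divided by the column totals to within 0.0005 and were not tested. The filter that left 8513 entries, strand use and the treatment of multi-mapping reads are not given in the sources used here, so tandem copies are uncertain. The methods and the notes name different zebrafish builds, and no coordinates were used.

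Counts were filtered with filterByExpr, scaled by TMM and fitted for all 17 samples together with edgeR 4.0.16 (quasi-likelihood F-test, limma 3.58.1, R 4.3.3). P-values were adjusted by Benjamini-Hochberg over 8412 entries, and adjusted p ≤ 0.05 was a call with no minimum fold. DESeq2 1.42.0 was an alternative. Others were column totals, DESeq2 size factors, no filter, the replicate number as a block, only the compared groups, the thresholds of the methods, leaving out each sample, sham replicate 5 as the only sham sample, the 1 dpci libraries summed in pairs, and 7 dpci replicates 2 and 4 left out together. Fits without the 3 libraries with *vil1* above 20 CPM, or without the entry with most counts, were chosen after seeing the data. Figures used Python 3.11.15 and matplotlib 3.10.9. On data simulated for 1 dpci against sham over 8393 genes, the recovered share of altered genes was 5.97% at a log2 fold change of 1, 64.2% at 2 and 93.9% at 3. Only 67, 67 and 66 genes were altered at these sizes, and false calls numbered 5. In the data 793 entries were called higher and 1216 lower. These shares therefore do not give the sensitivity of the calls reported here.

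The members and lists were chosen with earlier results of these data known. Classes were assigned from symbols, and those of the 4 genes named after carriers, the peptide carriers and a few others were corrected once the names in the table had been seen. Named genes were called genes that averaged at least 5 CPM in a group and whose groups did not overlap. *slc2a9l1* and *slc15a2* reached that mean only through sham replicate 2. Named genes numbered up to 4 in each direction in the amino acid, sugar, bile acid, mitochondrial and metal classes and up to 2 in the others. In each other comparison they were up to 5 in each direction, or the 3 of smallest p where fewer were called, and fixed liver carriers were added. All other genes named were chosen after their values were seen. By symbol or synonym 170 of 173 matched RefSeq. No sequence is printed.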

Additional observations from a re-analysis of the deposited data

Results flagged for a closer look

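Among the named genes, 12 of 172 sets of samples from one group held a sample far from the rest by Dixon's test. Its chance rate of about 1 in 20 holds for normally distributed values. CPM of so few samples need not be so distributed, and many of the genes were chosen by calls in these data. The count is therefore not compared with chance. 3 dpci replicate 4 stood apart for 3 genes: 5.92 CPM of *slc25a29b* against 84.3 to 96.4 CPM in the other 3 dpci samples, 10.2 CPM of *slc39a3* against 4.61 to 5.44 CPM, and 79.2 CPM of *slc43a3b* against 20.3 to 28.9 CPM. *slc43a3b* also had 67.3 CPM in 1 dpci replicate 3 against 18.2 to 22.4 CPM in the other 1 dpci samples. Sham replicate 2 had 46.8 CPM of *slc15a2* against 1.84 to 6.29 CPM in the other sham samples, and 35.7 CPM of *slc2a9l1* against 1.48 to 2.43 CPM. 7 dpci replicate 1 had 69.9 CPM of *slc20a1b* against 30.4 to 32.1 CPM in the other 7 dpci samples, and 7.93 CPM of *slc35a1* against 3.23 to 3.63 CPM.

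The others were single cases. 7 dpci replicate 2 had 166 CPM of *slc25a20* against 50 to 62.3 CPM, 7 dpci replicate 3 had 23.9 CPM of *slc25a39* against 6.74 to 9.03 CPM, sham replicate 1 had 19.6 CPM of *slc30a1a* against 8.72 to 10.9 CPM, and 3 dpci replicate 1 had 13.8 CPM of *slco2b1* against 1.91 to 3.08 CPM.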

How the results depend on the processing

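Of the 51 calls at 1 dpci against sham, 36 to 50 remained when 1 sample was left out. The counts then ran from 13 to 23 higher, 13 being without 1 dpci replicate 1, and from 22 to 31 lower. Column totals gave 58 higher, 55 carriers whose 1 dpci samples lay above every sham sample and 11 whose samples lay below. With sham replicate 5 as the only sham sample, 0 were higher and 3 lower by edgeR, and with the 1 dpci libraries summed in 2 pairs 7 were higher and 10 lower, with fewer samples in both cases. Against sham, leaving out 1 sample gave 0 calls at 3 and 7 dpci, while DESeq2 called 2 higher and 1 lower at 3 dpci. The thresholds of the methods gave 3 higher and 5 lower at 3 dpci and 2 higher and 9 lower at 7 dpci.

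At 3 dpci against 1 dpci, 8 to 19 were higher and 6 to 13 lower with 1 sample left out (19 without 3 dpci replicate 4). DESeq2 gave 21 higher, the thresholds of the methods 24 higher and 14 lower, summed pairs 1 higher and 4 lower, and a fit of only the 2 groups 15 lower. At 7 dpci against 1 dpci, 16 to 31 were higher and 13 to 25 lower with 1 sample left out. Summed pairs gave 7 higher and 9 lower, column totals 31 lower, and leaving out 7 dpci replicates 2 and 4 together 15 higher. The cause of these shifts was not tested.

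Of the 117 carriers tested and not called at 1 dpci against sham, 33 had the opposite sign with column totals. Among the named genes, the log2 fold changes that turned were 0.44 for *slc51a*, 0.54 for *slc37a4a*, 0.29 for *slc38a2* and 0.85 for *slc25a20*, and *slc51a* was 0.074 against sham replicate 5 alone. *slc25a20* ran from -0.245 to 0.072 with 1 sample left out.

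With the replicate number as a block, 19 carriers were higher and 25 lower at 1 dpci than in sham livers, and 42 of the 51 calls remained. Deviations of samples with the same number correlated above 0.1 in 6 of 24 pairs, with correlations from -0.2663 to 0.4525. No chance level was computed for them, so they do not decide whether the numbers pair the samples. In libraries of 4743533 to 6800961 counts, 3 counts correspond to 0.325 to 0.875 CPM, which limits the carriers near 0.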

Other observations

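Some carriers outside the comparisons above varied between samples. *slc45a3*, which was not tested, had 6.82, 8.26, 0.976 and 0.377 CPM at 1 dpci, against 0 to 0.369 CPM in sham livers. *slc4a5b*, of the bicarbonate carriers, had 100.4 CPM in 3 dpci replicate 1, 77.2 CPM in 7 dpci replicate 4 and 15.6 CPM in sham replicate 5. *slc34a2a*, a phosphate carrier, had 44.6 CPM in 3 dpci replicate 1, 6.88 CPM in 7 dpci replicate 4 and 5.68 CPM in sham replicate 2. *slc15a1a* had 19.7, 22.5 and 4.55 CPM in those 3 libraries. Of the carriers in tandem or duplicate, *slc6a22.2* was lower at 1 dpci, with a log2 fold change of -2.90, while *slc6a22.1* had -0.21 and was not called. Pairs of copies were formed by symbol, 9 in all, and their log2 ratios at 1 dpci and in sham livers were compared by exact permutation of the samples. The adjusted p was 0.0357 for this pair and ran from 0.0357 to 0.929 over the others. The permutation treats the 1 dpci libraries as separate, and this pair was named after its values were seen.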
